A study of Mus musculus with 9 samples.

Results

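Imprinted genes are expressed mainly from the copy inherited from 1 parent, and 39 of them were followed here in the yolk sac of mouse embryos that carried 2, 1 or no working copies of Rnh1, the gene for the cytosolic ribonuclease inhibitor. They come from a list of genes known to be imprinted in mice, and a gene was measured where a probe set of the deposited value table named it and no other gene. Of the 39 genes, 35 had such a probe set, among 19933 genes with one on the array, and none of the 35 had more than 1. H19 and Slc22a3 were matched to no probe set and are not analysed here, and Snrpn and Gnas were named only on probe sets that also name another gene. Of the 35, 32 were tested because their signal exceeded the 40th percentile of the array on at least 3 arrays, 17 of them reported as maternally and 15 as paternally expressed. Tnfrsf23, Calcr and Usp29 stayed under that level on all 9 arrays and were not tested. Each tested member was above the level on 8 or 9 of the 9 arrays, so no member entered the test through a single genotype.

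Yolk sacs were taken at E9.5 and freed of maternal tissue, from embryos on a mixed SV 129/C57BL/6 background that received no treatment. The 3 genotypes were wild type (WT, Rnh1 +/+), heterozygous (HET, Rnh1 +/-) and knock out (KO, Rnh1 -/-), each with 3 Affymetrix arrays of 100 ng total RNA. Embryo sex, pooling of yolk sacs and the parent that passed on the mutated allele are not in the labels, nor is the strain origin of the chromosome around Rnh1. Rnh1 lies on the same chromosome as several imprinted clusters, so genotype at Rnh1 and strain alleles of linked genes cannot be told apart. The arrays measure total RNA and do not separate the parental copies. A difference below is therefore one in amount, and whether imprinting changed cannot be told.

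Imprinted genes lie in clusters in which a methylation mark set in the egg or the sperm decides which parental copy is read. Within a cluster, maternally and paternally expressed genes often lie side by side and share control elements and long noncoding RNAs. Paternally expressed genes such as Igf2 are known for promoting growth of the fetus and its membranes, and maternally expressed genes such as Igf2r, Cdkn1c, Phlda2 and Grb10 for restraining it. The yolk sac, with its absorbing visceral endoderm, mesoderm and first blood cells, is among the tissues in which imprinted genes are strongly expressed, and some genes, such as Sfmbt2 and Gatm, are reported as imprinted mainly in extraembryonic tissue.

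Rnh1 itself followed the labels. WT arrays gave log2 signals of 10.39, 10.42 and 10.32, HET arrays 9.75, 9.75 and 9.77, and KO arrays 6.28, 6.78 and 6.87. The KO mean was 13.3-fold below the WT mean (difference -3.73 ± 0.13 SE on the log2 scale, limma adjusted p = 4.61e-06), with KO 1 under the 40th percentile of its array. An exact two-sided permutation test gave p = 0.1, the smallest that 3 against 3 arrays allow. Across all genes, 3101 of 13207 tested passed between KO and WT (23.5%), 1092 higher (8.27%) and 2009 lower (15.2%), which is the background for every count below. Correlations between arrays ranged from 0.992 to 0.998 within genotypes and from 0.987 to 0.998 between them. Defining markers of visceral endoderm (15 of 16 on every array), extraembryonic mesoderm (12 of 12), endothelium (10 of 10) and erythroid cells (10 of 10) were above the 40th percentile. Xist, read from the inactive X, was low on WT 1, HET 1 and HET 3 (5.15 to 5.76) and high on the other 6 arrays (10.56 to 11.67), while the Y-linked Eif2s3y was low only on WT 3 and KO 3 (4.34 and 4.41). Both were high on 4 arrays, WT 2, HET 2, KO 1 and KO 2.

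Promoters of 4 members that the results turn on are printed first. Phlda2, Slc22a18 and Tssc4 lie in the Kcnq1 domain and moved in different directions, and Peg3 gives its name to a cluster whose opposite-strand genes start almost back to back. Each is 300 bases around the RefSeq start, most of them before it, on GRCm38.p6, 5′ to 3′ on the gene's own strand. Capitals mark CG dinucleotides, the sites of DNA methylation, in the sequences of Phlda2 (chr7:143502475-143502774, minus strand), Slc22a18 (chr7:143473539-143473838, plus strand) and Tssc4 (chr7:143069118-143069417, plus strand). In that of Peg3 (chr7:6730370-6730669, minus strand) they mark GGGGCCCC, the core of the site bound by Plagl1, itself an imprinted transcription factor.
Phlda2: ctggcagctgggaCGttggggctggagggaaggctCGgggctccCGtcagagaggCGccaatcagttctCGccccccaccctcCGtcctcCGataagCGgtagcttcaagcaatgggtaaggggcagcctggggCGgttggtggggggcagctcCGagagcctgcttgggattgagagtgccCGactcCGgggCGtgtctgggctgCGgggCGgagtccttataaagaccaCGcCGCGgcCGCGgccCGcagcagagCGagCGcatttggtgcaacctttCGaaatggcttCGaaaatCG
Slc22a18: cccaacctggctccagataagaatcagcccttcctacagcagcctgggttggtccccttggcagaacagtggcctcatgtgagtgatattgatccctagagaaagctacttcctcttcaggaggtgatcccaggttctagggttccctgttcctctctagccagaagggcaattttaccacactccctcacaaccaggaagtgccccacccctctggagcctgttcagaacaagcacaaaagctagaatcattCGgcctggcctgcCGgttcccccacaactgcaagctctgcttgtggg
Tssc4: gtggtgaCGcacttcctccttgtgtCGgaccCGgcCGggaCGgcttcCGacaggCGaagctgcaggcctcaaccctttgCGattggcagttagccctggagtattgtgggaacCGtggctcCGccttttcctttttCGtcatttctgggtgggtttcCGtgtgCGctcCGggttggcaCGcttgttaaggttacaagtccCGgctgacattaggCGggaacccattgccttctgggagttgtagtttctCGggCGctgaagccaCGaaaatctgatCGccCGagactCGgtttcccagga
Peg3: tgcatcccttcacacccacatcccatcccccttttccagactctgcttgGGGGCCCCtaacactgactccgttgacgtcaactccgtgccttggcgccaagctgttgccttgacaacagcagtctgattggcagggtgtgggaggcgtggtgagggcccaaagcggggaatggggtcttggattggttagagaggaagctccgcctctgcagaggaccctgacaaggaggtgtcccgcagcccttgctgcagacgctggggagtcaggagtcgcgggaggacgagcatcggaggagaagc

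Phlda2 and Slc22a18, which are neighbours, differed in this window: the Phlda2 promoter held 26 CG dinucleotides and that of Slc22a18 only 2. That of Tssc4 held 23 and that of Peg3 13. Of all 32851 mouse promoters of this length, 84.5% held at most as many as Phlda2 and 23.3% at most as many as Slc22a18. RefSeq held 50 promoters of 30 members, with a median of 13.5 CG dinucleotides against 7 over all promoters. GGGGCCCC, which reads the same on both strands, was in 6% of the members' promoters (those of Peg3, Usp29 and Ppp1r9a) and in 1.08% of all. Peg3 and Usp29 are read from opposite strands and their windows overlap by 263 bases, so the match in both is the same site. GCCATNTT, the core bound by Yy1, was in 2% of the members' promoters, that of Sfmbt2, against 6.05% of all, and TATAAA in 22% against 13.6%, on either strand. A match describes these letters only.

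Between KO and WT, imprinted genes moved both ways. Of 32 members, 6 rose (Tssc4, Peg3, Meg3, Ndn, Magel2 and Zim1) and 5 fell (Phlda2, Slc22a18, Sgce, Ddc and Impact), while 21 did not pass the test. That is 34.4% of the members, beside the 23.5% of all genes given above. The 3 KO arrays lay wholly apart from the 3 WT arrays for 15 members (46.9%), beside 40.5% of all genes. Differences ran from -0.54 for Slc22a18 to 1.03 for Ascl2 on the log2 scale, with a median of 0.08 and a median size of 0.24, against -0.00 and 0.16 over all genes. In 21 alternative settings of filter, normalization, model and arrays used, the KO minus WT calls of Slc22a18, Tssc4 and Impact held throughout and that of Ddc in 20. The call ended in 3 settings for Meg3, 8 for Sgce, 9 for Phlda2, 11 each for Magel2 and Zim1, and 12 each for Peg3 and Ndn. Because the labels do not say that the samples came from separate animals, the p-values measure only the spread between these samples. In whole tissue, fewer cells of a type and less RNA per cell cannot be told apart.

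**Figure D1:**
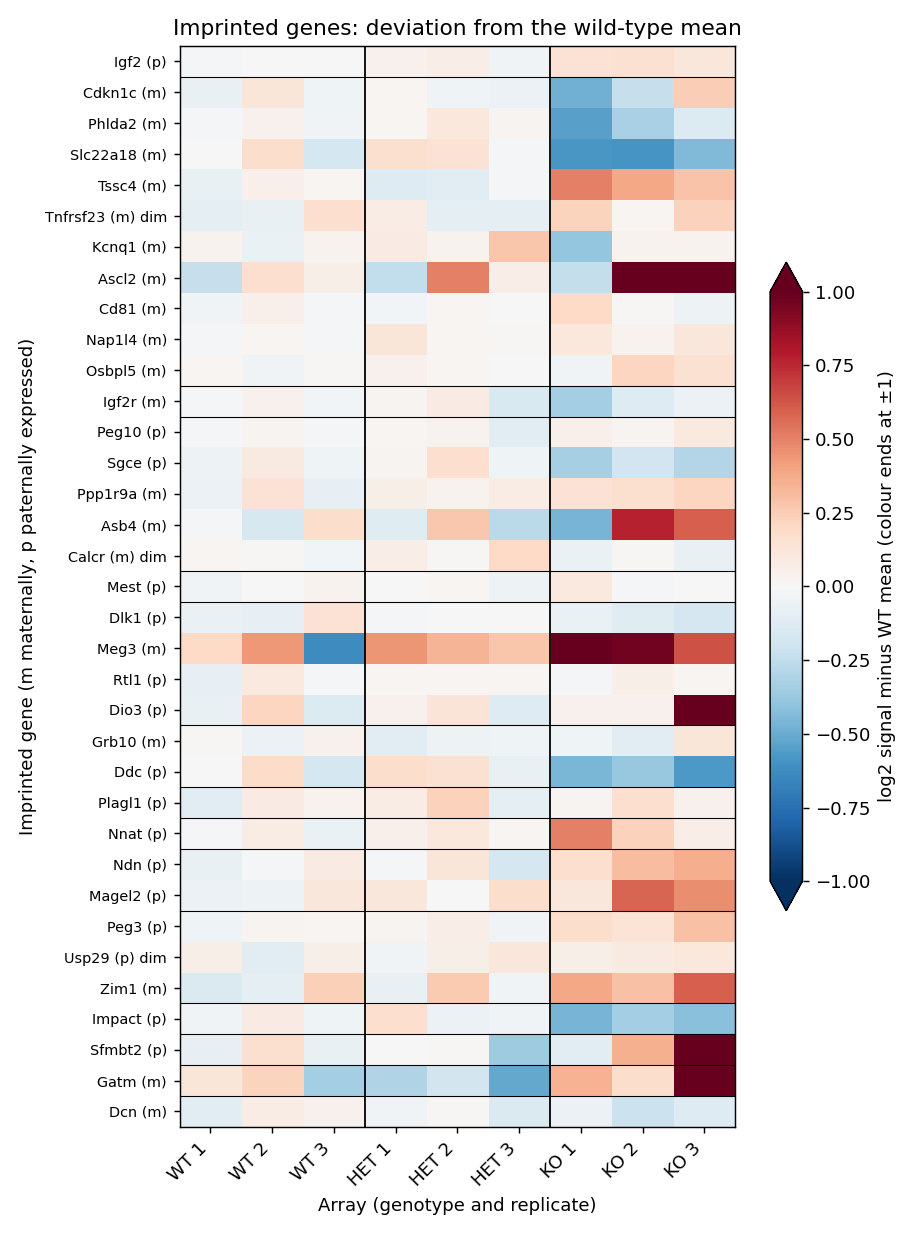
Signal of the 35 imprinted genes on the 9 arrays (columns), as log2 difference from the gene's own WT mean (colour, ending at ±1), with genes grouped by imprinted cluster (horizontal lines) and marked m or p for the expressed allele. HET arrays stay near WT for most genes, Slc22a18, Ddc and Impact are low on all 3 KO arrays, and Ascl2, Sfmbt2, Gatm and Dio3 differ among the KO arrays.

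The H19-Igf2 and Kcnq1 clusters lie on the chromosome of Rnh1 and hold growth regulators of either parental class. Igf2, the paternally expressed insulin-like growth factor, was measured by probe set 10569344 at 12.60, 12.62 and 12.62 in WT, 12.65, 12.68 and 12.58 in HET, compared with 12.75, 12.76 and 12.72 in KO. The KO arrays lay above every other array, yet the difference was small, 0.14 ± 0.05 (SE), or 1.10-fold, and did not pass (adjusted p = 0.0869 by limma). It passed under quantile normalization, cyclic loess, array weights and a trended prior, with adjusted p from 0.0123 to 0.496 over the 21 alternatives. Igf2r, the maternally expressed receptor that carries Igf2 to lysosomes, read 11.34, 11.39 and 11.32 in WT, 11.37, 11.43 and 11.19 in HET against 11.00, 11.22 and 11.29 in KO. All 3 KO arrays were below the WT arrays, but HET 3 lay within the KO range, and the KO to WT difference of -0.18 ± 0.09 (SE) did not pass (adjusted p = 0.178).

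Slc22a18, a maternally expressed gene for a membrane carrier of the organic cation family, fell the furthest of the tested members. Its signal (probe set 10559297) was 10.01, 10.18 and 9.84 in WT, 10.17, 10.16 and 10.00 in HET, compared with 9.43, 9.42 and 9.57 in KO. No KO array reached the lowest WT or HET array. The KO mean was 9.47 ± 0.08 (SD, n = 3) against 10.01 ± 0.17 in WT, 1.45-fold lower, with a difference of -0.54 ± 0.10 (SE, adjusted p = 0.00543 by limma). Against HET the difference was -0.64 (adjusted p = 0.0028). Both calls held in all 21 alternatives.

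Phlda2, its neighbour and a maternally expressed brake on placental growth, fell less. It read 12.90, 12.96 and 12.88 in WT, 12.93, 13.02 and 12.94 in HET against 12.37, 12.59 and 12.78 in KO (probe set 10569437). KO 1 was the lowest and KO 3 came close to WT 3, but no KO array overlapped the WT or HET arrays. The difference from WT was -0.33 ± 0.09 (SE), 1.26-fold lower (adjusted p = 0.0327), and from HET -0.38 (adjusted p = 0.0201). Without KO 2, HET 1 or any of the WT arrays the difference from WT missed the threshold, at -0.35 to -0.31 with adjusted p from 0.0517 to 0.097, as it did under quantile normalization and cyclic loess.

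Tssc4, a maternally expressed gene whose protein helps to assemble the splicing machinery, rose instead. Its values (probe set 10559270) were 7.78, 7.90 and 7.88 in WT, 7.73, 7.75 and 7.84 in HET, compared with 8.36, 8.24 and 8.14 in KO. All 3 KO arrays lay above all 6 others. The rise over WT was 0.39 ± 0.07 (SE), 1.31-fold (adjusted p = 0.00606 by limma), and over HET 0.47 (adjusted p = 0.00288). These calls also held in all 21 alternatives.

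The other tested genes of the Kcnq1 domain did not pass. Cdkn1c, the cell cycle inhibitor p57 and the neighbour of Slc22a18, read 10.92, 11.11 and 10.95 in WT and 10.52, 10.77 and 11.24 in KO. Its KO arrays ran from below to above every WT array. The difference was -0.15 (adjusted p = 0.493), became -0.35 without KO 3 (adjusted p = 0.0339) and turned to 0.01 without KO 1. Kcnq1, a potassium channel, ranged from 6.71 to 6.81 in WT and from 6.39 to 6.81 in KO, a difference of -0.11. The tetraspanin gene Cd81 differed by 0.05, the histone chaperone gene Nap1l4 by 0.09 and the lipid transfer gene Osbpl5 by 0.11, 1.04- to 1.08-fold. The signs for Kcnq1 and Cd81 turned without KO 1, and that for Cd81 also turned when arrays were centred on their medians. Osbpl5 passed without KO 1, at 0.18 (adjusted p = 0.035), and was at 0.06 without KO 2. Tnfrsf23, a decoy receptor of the TNF family, stayed between 5.72 and 6.05 on all arrays.

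In RefSeq's gene order (GRCm38.p6), Tssc4, Slc22a18 and Phlda2 lie within the stretch from H19 to Osbpl5. Counting only protein-coding genes and members, this stretch holds 19 genes. Of its 16 tested genes, most of which are members, 3 passed (18.8%), namely Tssc4, Slc22a18 and Phlda2. Between Rnh1 and H19 lie 56 genes by the same count, of which 36 were tested and 7 passed (19.4%), 3 higher and 4 lower. Both shares are below the 23.5% of all genes. Slc22a18 and Phlda2, the neighbouring pair that fell, are flanked by Cdkn1c and Nap1l4, which did not pass.

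**Figure D2:**
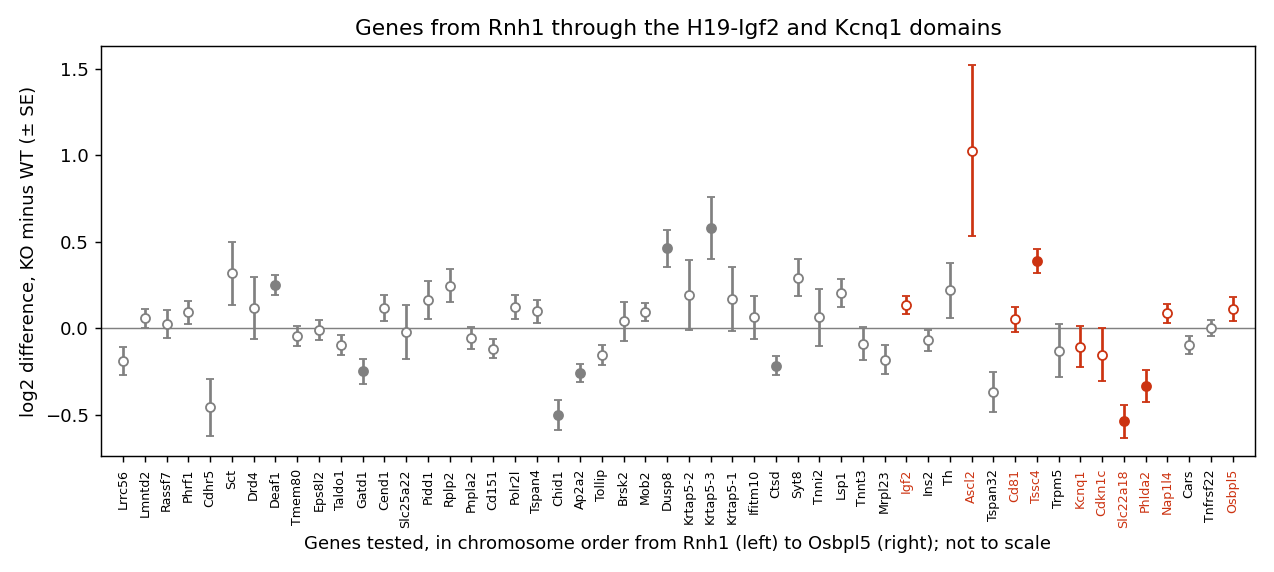
log2 difference between KO and WT (vertical axis, ± SE) for each tested protein-coding or listed gene from Rnh1 (itself not drawn) to Osbpl5. Genes are in chromosome order and not to scale. Imprinted genes of the list are red and filled symbols passed the test: Tssc4 is up at 0.39, Slc22a18 and Phlda2 are down at -0.54 and -0.33, and Ascl2 at 1.03 has the widest error.

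Outside this stretch, 3 genes classed as paternally expressed fell. Ddc encodes the decarboxylase that makes dopamine and serotonin, and its imprinting is reported for a transcript of the developing heart. It was nevertheless kept in the paternal class here. It read 9.44, 9.63 and 9.27 in WT, 9.62, 9.60 and 9.37 in HET against 8.99, 9.07 and 8.87 in KO (probe set 10384378). Every KO array was below every WT and HET array. The difference was -0.47 ± 0.11 (SE) from WT, 1.39-fold (adjusted p = 0.0136), and -0.55 from HET (adjusted p = 0.00733). Of the 21 alternatives, leaving out WT 2 and KO 1 together ended the call against WT (adjusted p = 0.0514). Grb10, the maternally expressed adaptor beside Ddc that damps insulin and growth factor signals, differed from WT by -0.01, a value whose sign changed under quantile normalization, cyclic loess and without WT 3, KO 1 or KO 2.

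Impact encodes a protein that restrains the amino acid stress kinase Gcn2. Its values (probe set 10454039) were 11.11, 11.24 and 11.10 in WT, 11.32, 11.09 and 11.12 in HET, compared with 10.69, 10.82 and 10.73 in KO. The KO arrays lay below the other 6. It was 1.32-fold lower than in WT (difference -0.40 ± 0.08 SE, adjusted p = 0.00678) and lower by -0.43 than in HET (adjusted p = 0.00541), in all 21 alternatives.

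Sgce encodes epsilon-sarcoglycan, a membrane protein, and shares a cluster with Peg10. It read 10.59, 10.73 and 10.60 in WT, 10.67, 10.81 and 10.60 in HET against 10.31, 10.45 and 10.35 in KO (probe set 10542965). The KO arrays lay below all WT and HET arrays, and the difference of -0.27 ± 0.07 (SE) from WT was 1.21-fold (adjusted p = 0.0288). It missed the threshold without WT 1, WT 2, WT 3, KO 1 or KO 3, at -0.30 to -0.23 with adjusted p from 0.052 to 0.099, and under both added normalizations. Peg10, a gene derived from a retrotransposon and paternally expressed from the same region, differed by only 0.06 (adjusted p = 0.474).

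Visceral endoderm markers averaged 11.10 to 11.13 in WT, 11.04 to 11.17 in HET and 10.85 to 11.08 in KO. Of 15 tested, 1 was higher and 2 lower (20%, beside 23.5% of all genes). Erythroid markers averaged 11.05 to 11.26 in WT, 10.94 to 11.32 in HET and 10.47 to 11.02 in KO. Of 10 tested, 5 were lower (50%, beside 15.2% of all genes). The part of these markers in the lower signal of Slc22a18, Phlda2, Ddc, Impact and Sgce was not tested.

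Among the genes that rose, Meg3 had the greatest difference. Meg3 is the maternally expressed long noncoding RNA of the Dlk1-Dio3 cluster. It read 10.65, 10.89 and 9.83 in WT, 10.90, 10.79 and 10.73 in HET, compared with 11.56, 11.42 and 11.09 in KO (probe set 10398326). WT 3 was far below the rest, and all KO arrays were above all WT and HET arrays. The rise over WT was 0.90 ± 0.24 (SE), 1.87-fold (adjusted p = 0.0258), and the difference from HET, 0.55, did not pass (adjusted p = 0.136). It missed the threshold without KO 1 or KO 2 (0.80 to 0.87, adjusted p 0.058 to 0.0733) and in a fit of WT and KO alone. Without WT 3 the rise passed but was smaller, at 0.59 (adjusted p = 0.0244). The difference from HET passed without WT 3 (0.55, adjusted p = 0.0202).

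The paternally expressed genes of the same cluster did not follow it. Dlk1, a transmembrane regulator of differentiation, differed by -0.12 (adjusted p = 0.244), and Rtl1, another retrotransposon-derived gene, by 0.02, with a sign that turned in 4 of the alternatives. Rian, a noncoding RNA beside Meg3 that is no member and was chosen after its values were seen, read 7.83, 8.25 and 6.52 in WT and 8.40, 8.39 and 7.83 in KO. WT 3 was the lowest array for it too, and the difference of 0.67 did not pass (adjusted p = 0.238). WT 3 and WT 1 also had the highest parietal endoderm markers. The mean of these was 10.43, 9.69 and 10.91 in WT against 9.64 to 9.70 in HET and 9.69 to 9.91 in KO. Of these 10 markers, 2 were lower in KO than in WT (20%, beside 15.2% of all genes). Their part in the value of Meg3 was not tested.

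The reciprocally imprinted pair Peg3 and Zim1 rose together. Peg3, a paternally expressed zinc finger gene known for effects on maternal behaviour and growth, read 11.74, 11.80 and 11.80 in WT, 11.81, 11.85 and 11.74 in HET against 11.95, 11.92 and 12.07 in KO (probe set 10559796). Zim1, its maternally expressed neighbour, read 8.09, 8.14 and 8.48 in WT, 8.16, 8.50 and 8.20 in HET, compared with 8.63, 8.53 and 8.83 in KO (probe set 10559790). For both genes all KO arrays were above all others, by a narrow margin for Zim1. Peg3 differed from WT by 0.20 ± 0.06 (SE, 1.15-fold, adjusted p = 0.0405) and Zim1 by 0.43 ± 0.13 (SE, 1.34-fold, adjusted p = 0.0449). From HET the differences were 0.18 and 0.38 and did not pass (adjusted p = 0.0609 and 0.0717). Peg3 missed the threshold without KO 3, HET 1, HET 2 or any WT array (adjusted p 0.0568 to 0.138), and Zim1 without WT 1, WT 2, HET 1, HET 3, KO 1, KO 2 or KO 3 (0.0561 to 0.145). Without WT 3, Zim1 passed against HET (adjusted p = 0.0499). Usp29, which starts beside Peg3 on the other strand, stayed between 5.67 and 5.90 on all arrays.

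Ndn and Magel2, paternally expressed relatives of the MAGE family from the region affected in Prader-Willi syndrome, rose as well. Ndn read 9.95, 10.01 and 10.11 in WT, 10.02, 10.15 and 9.85 in HET against 10.19, 10.33 and 10.39 in KO (probe set 10553833). Magel2 read 7.10, 7.11 and 7.27 in WT, 7.27, 7.16 and 7.33 in HET, compared with 7.27, 7.74 and 7.62 in KO (probe set 10553835). The KO arrays were apart for Ndn, while KO 1 fell within the WT and HET values for Magel2. Ndn differed from WT by 0.28 ± 0.09 (SE, 1.21-fold, adjusted p = 0.0492) and from HET by 0.30 (adjusted p = 0.0405). Magel2 differed from WT by 0.39 ± 0.12 (SE, 1.31-fold, adjusted p = 0.0408) and from HET by 0.29 (adjusted p = 0.107). Ndn missed the WT threshold when KO 2, KO 3, HET 1 or any WT array was left out (adjusted p 0.059 to 0.153) and the HET threshold without any array other than HET 2 and KO 1 (0.0516 to 0.115). Magel2 missed the WT threshold without any array other than KO 1 (0.051 to 0.123). Against HET it passed without KO 1, at 0.43 (adjusted p = 0.00867), and was at 0.19 without KO 2. With Eif2s3y as a covariate for sex, Peg3, Ndn and Magel2 no longer passed against WT, nor did Ndn against HET.

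Extraembryonic mesoderm markers averaged 10.22 to 10.32 in WT, 10.14 to 10.29 in HET and 10.31 to 10.48 in KO. Of 12 tested, 3 were higher and 1 lower (33.3%, beside 23.5% of all genes). Embryo proper markers averaged 6.28 to 6.52 in WT, 6.46 to 6.59 in HET and 6.55 to 7.02 in KO. Of 14 with a probe set 7 were tested, of which 3 were higher (42.9%, beside 8.27% of all genes). Among these 3, 1 was above the 40th percentile on only 4 arrays, the 3 KO arrays and, narrowly, WT 3. That gene met the filter through the KO arrays, where it is high, so the share of 42.9% depends in part on the filter. The part of mesoderm and embryo markers in the higher signal of the 6 imprinted genes that rose was not tested.

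**Figure D3:**
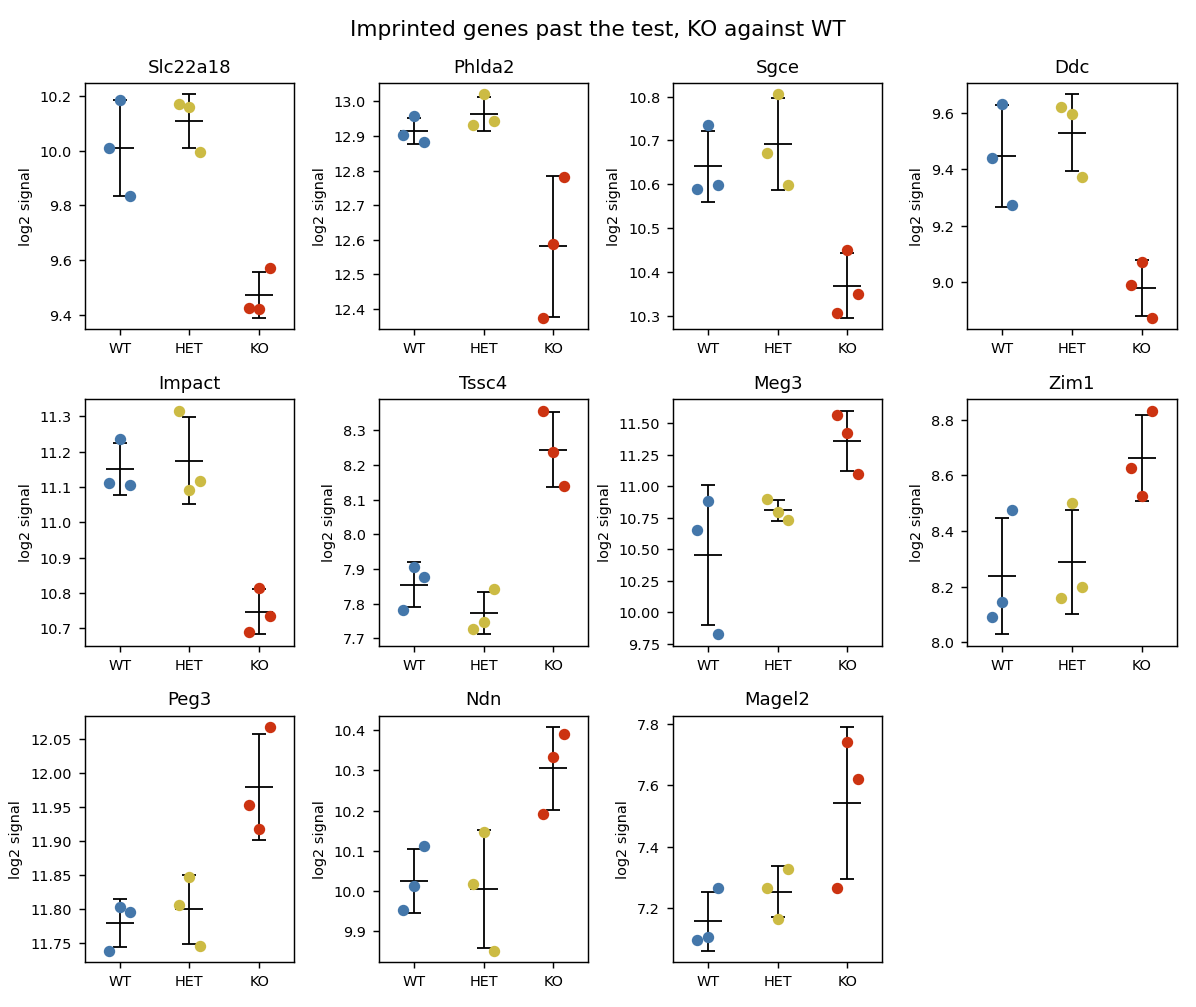
log2 signal (vertical axes, each panel on its own scale) of the 11 imprinted genes that passed between KO and WT, by genotype, with each array as a point and the mean ± SD as lines. KO arrays lie apart from WT and HET for every gene except Magel2, where KO 1 falls among them, and WT 3 is far below the other arrays for Meg3.

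Both parental classes held genes that rose and genes that fell. Of 17 maternally expressed genes 3 rose and 2 fell (29.4%), and of 15 paternally expressed genes 3 rose and 3 fell (40%). The 3 paternal genes that fell include Ddc, whose imprinting is reported for a heart transcript. Of all genes, 23.5% passed. With all tested genes counted, the median difference from WT was 0.09 for the maternal and 0.08 for the paternal class. These medians were closer to each other than the array-to-array SD of the class medians (0.06 and 0.05). The paternal median was 0.05 without WT 1 and 0.04 without KO 3. The median size of the difference, whatever its direction, was 0.18 in the maternal and 0.27 in the paternal class, beside 0.16 over all genes, and this gap was not tested. Differences ranged from -0.54 to 1.03 in the maternal and from -0.47 to 0.47 in the paternal class. KO and WT arrays did not overlap for 8 maternally (47.1%) and 7 paternally expressed genes (46.7%), beside 40.5% of all genes.

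By array, the mean deviation of the maternal class from its WT mean was -0.02, 0.15 and 0.32 on KO 1, KO 2 and KO 3, and that of the paternal class -0.01, 0.07 and 0.16. WT and HET arrays stayed between -0.06 and 0.09 for both classes. KO 1 was within the range of the WT and HET arrays for both classes and KO 3 above it. The maternal median depended on which genes were counted. Over the 9 genes classed here as imprinted beyond placenta and brain it was -0.11, with 2 higher and 2 lower (44.4%, beside 23.5% of all genes). Gatm, reported in placenta and yolk sac, was not among these and was counted with the placental genes. Over the 8 tested genes classed as imprinted mainly in placenta the median was 0.14, with Tssc4 alone passing (12.5%). All 15 tested paternal genes were classed as imprinted beyond placenta and brain, so the paternal median stayed at 0.08. The closeness of the class medians thus depended on counting the placental genes.

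**Figure D4:**
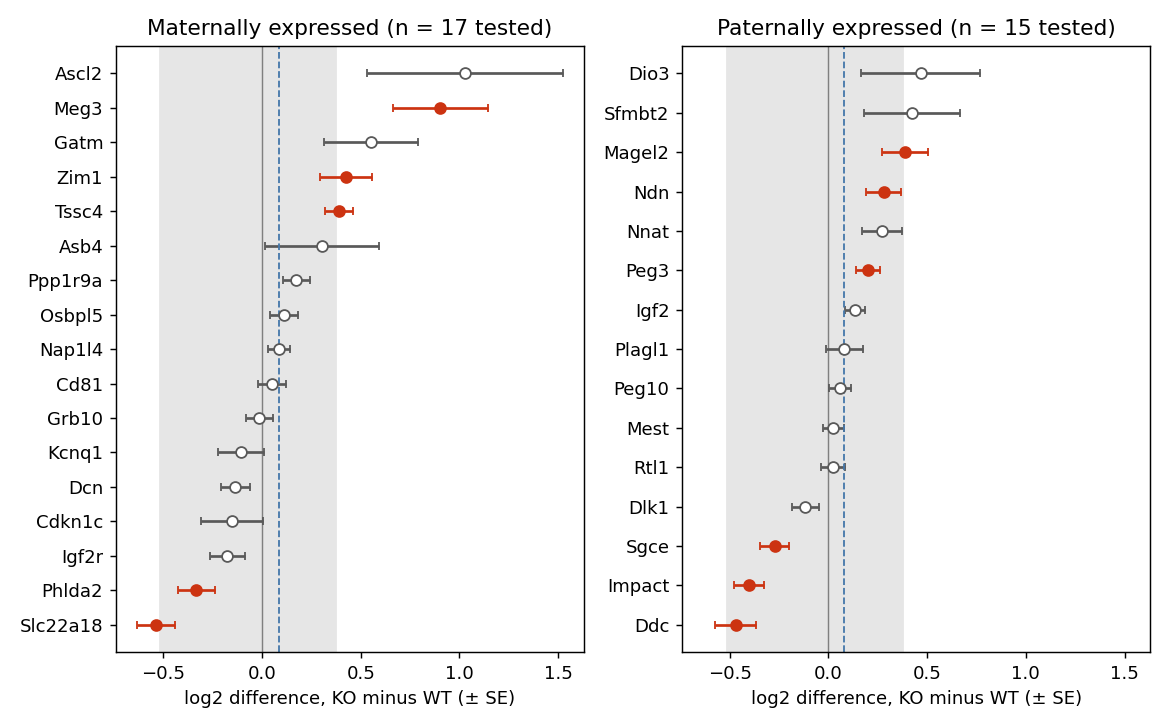
log2 difference between KO and WT (horizontal axis, ± SE) of the 17 maternally and 15 paternally expressed genes tested, with red filled points for genes that passed. The grey band runs from the 5th to the 95th percentile of all genes tested (-0.515 to 0.376) and the dashed line is the class median, 0.09 and 0.08. Ascl2, Meg3, Gatm, Zim1 and Tssc4 of the maternal class and Dio3, Sfmbt2 and Magel2 of the paternal class lie above the band, and Slc22a18 below it.

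In 5 members the KO arrays differed widely among themselves, with SDs from 0.51 to 1.22. Ascl2, a maternally expressed transcription factor needed for the spongiotrophoblast of the placenta, read 6.49, 6.89 and 6.77 in WT, 6.47, 7.22 and 6.79 in HET against 6.48, 7.84 and 8.91 in KO. KO 1 was as low as the lowest control and KO 3 was the highest array. The difference of 1.03 ± 0.50 (SE) did not pass (adjusted p = 0.162), and it rested on single arrays: without KO 1 it was 1.66 and passed (adjusted p = 0.00871), and without KO 3 it was 0.44 (adjusted p = 0.44).

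Sfmbt2, a paternally expressed polycomb gene of extraembryonic tissue, read 10.02, 10.26 and 10.02 in WT, 10.10, 10.11 and 9.74 in HET, compared with 9.99, 10.45 and 11.12 in KO. Its order on the KO arrays was that of Ascl2, and its difference of 0.42 did not pass (adjusted p = 0.234) but passed without KO 1, at 0.69 (adjusted p = 0.0343). Without KO 3 it was 0.12 (adjusted p = 0.646). Asb4, a maternally expressed ubiquitin ligase adaptor of blood vessels, read 10.03, 9.89 and 10.22 in WT and 9.58, 10.82 and 10.64 in KO. KO 1 was the lowest of all arrays, and the difference of 0.30 became 0.69 and passed without it (adjusted p = 0.0179). Without KO 2 it was 0.07 and without KO 3 0.15 (adjusted p = 0.898 and 0.776). These 3 genes also passed with array weights and without WT 2 and KO 1.

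Dio3, the paternally expressed enzyme that inactivates thyroid hormone, read 7.52, 7.80 and 7.46 in WT, 7.63, 7.72 and 7.46 in HET against 7.63, 7.63 and 8.91 in KO. Only KO 3 stood apart, and the difference of 0.47 did not pass (adjusted p = 0.282) and was 0.04 without KO 3. Gatm, a maternally expressed enzyme of creatine synthesis whose imprinting is reported in placenta and yolk sac, read 8.98, 9.09 and 8.52 in WT, 8.57, 8.68 and 8.36 in HET, compared with 9.22, 9.04 and 9.99 in KO. KO 2 lay just under WT 2, while all KO arrays were above all HET arrays. Gatm passed against HET, at 0.89 ± 0.24 (SE, adjusted p = 0.029), and not against WT, at 0.55 (adjusted p = 0.123), which was 0.26 without KO 3. The HET comparison missed the threshold without HET 1, HET 2 or HET 3 (adjusted p 0.0623 to 0.0857). It also missed it with the sex covariate and with the replicate number as a block.

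Trophoblast markers varied on the same arrays. Of 20 listed, 15 had a probe set of their own and 8 were tested. Of these, 1 was higher (12.5%, beside 8.27% of all genes) and none lower. Their mean was 6.38 to 6.55 in WT, 5.86 to 6.61 in HET and 6.58, 6.85 and 7.60 on KO 1, KO 2 and KO 3. Of the 7 that were not tested, Ctsq, Ctsj, Prl8a9, Prl7a2 and Prl7d1 were under the 40th percentile on all 9 arrays, and Tpbpa and Elf5 were above it on KO 3 only. Tpbpa, a gene of the spongiotrophoblast, read 5.90, 4.92 and 7.84 in KO against 4.64 to 5.84 in WT, and Elf5, a transcription factor of trophoblast stem cells, 5.76, 5.92 and 7.30 against 5.69 to 5.78. Prl2a1, a prolactin family gene, rose by 0.90 (adjusted p = 0.0084), on a probe set that was above that percentile on the 3 KO arrays only. Its relatives Prl4a1 and Prl7a1 did not follow the order of Ascl2. Prl4a1 read 9.49, 9.81 and 8.75 in KO against 6.64 to 8.86 in WT and 6.14 to 10.31 in HET. Prl7a1 read 7.90, 8.93 and 7.50 in KO against 7.78 to 10.70 in WT, with KO 3 below every WT array. KO 3 was the highest of the 9 arrays for 9 of the 15 markers and for 5 of the 8 tested (Syna, Rhox6, Rhox9, Plac1 and Tfap2c). Of these, Rhox9 read 8.28, 10.19 and 11.65 in KO against 8.79 to 9.42 in WT, and Syna 6.83, 6.56 and 9.83 against 6.40 to 6.74. All trophoblast genes named here other than Prl2a1, Prl4a1 and Prl7a1 were chosen after their values were seen. Decidua markers averaged 7.30 to 7.57 in WT, 6.97 to 7.41 in HET and 7.44 to 7.71 in KO. The part of trophoblast or decidua RNA in these imprinted genes was not tested.

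**Figure D5:**
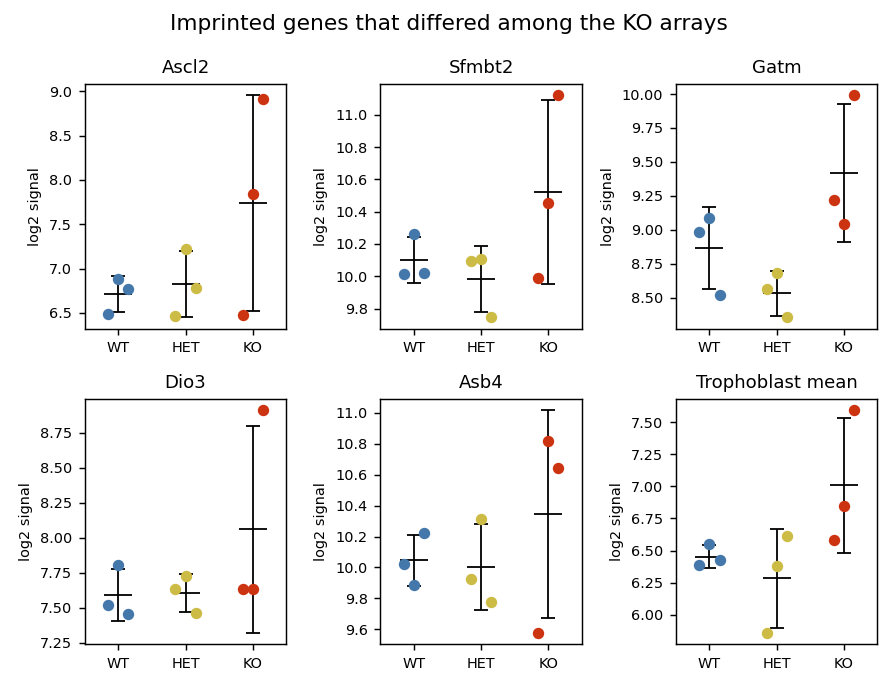
log2 signal (vertical axes, each panel on its own scale) of 5 imprinted genes that differed among the KO arrays and, in the last panel, the mean over 15 trophoblast markers, by genotype, with each array as a point and the mean ± SD as lines. KO 3 is the highest array for Ascl2, Sfmbt2, Gatm, Dio3 and the marker mean, and KO 1 is the lowest for Asb4.

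The remaining members did not pass. Nnat, a paternally expressed small membrane protein gene, read 11.00, 11.09 and 10.95 in WT and 11.52, 11.25 and 11.08 in KO. Its difference of 0.27 did not pass (adjusted p = 0.0838), but passed without KO 3 at 0.37 (adjusted p = 0.0257), under quantile normalization and cyclic loess, with array weights and with the sex covariate. Without KO 1 it was 0.15. Ppp1r9a, which encodes the actin-binding neurabin I, ranged from 7.10 to 7.32 in WT and from 7.32 to 7.40 in KO, a difference of 0.17 (adjusted p = 0.0995) that passed without WT 2 (0.24, adjusted p = 0.0316). Dcn, a matrix proteoglycan, differed by -0.13 and Plagl1, the zinc finger factor of imprinted networks, by 0.08. Mest, a hydrolase family gene, differed by 0.02 with a range of 12.82 to 12.89 in WT and 12.84 to 12.94 in KO. Calcr, the calcitonin receptor, stayed between 5.65 and 5.92.

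On the shared probe sets, outside the rule and outside the test, the set naming Snurf and Snrpn, which share a transcript of the Prader-Willi region, read 8.22, 8.29 and 8.28 in WT and 8.97, 8.29 and 8.73 in KO. KO 2 was level with WT. The set naming Gnas, which encodes a G protein subunit, and Gnasas1 read 10.55, 10.61 and 10.55 in WT and 10.52, 10.45 and 10.49 in KO, lower on all 3 KO arrays by a mean of -0.09.

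No difference was detected in imprinted genes with loss of 1 Rnh1 copy. No member passed between HET and WT by limma, none had an unadjusted p under 0.05, and no member's groups were apart. Over all genes, 0 of 13207 passed (0%), 327 had an unadjusted p under 0.05 (2.48%), and 10.2% had groups apart. Rnh1 itself did not pass here, although its HET arrays lay below all WT arrays (difference -0.62, limma adjusted p = 0.939). A member difference of that size could thus also have been missed. Member differences ranged from -0.33 for Gatm to 0.35 for Meg3, with a median of 0.02.

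The KO to HET comparison shares its KO arrays with the KO to WT comparison and is not independent of it. Of 32 members 8 passed (25%), beside 21.8% of all genes. Tssc4, Ndn and Gatm were higher, as were 8.17% of all genes, and Phlda2, Slc22a18, Sgce, Ddc and Impact lower, as were 13.6%. Groups were apart for 14 members (43.8%), beside 37.1% of all genes. By class, 4 of 17 maternally (23.5%) and 4 of 15 paternally expressed genes (26.7%) passed. Sgce differed from HET by -0.32 (adjusted p = 0.0156), a call lost without HET 2 (adjusted p = 0.0594) and with the sex covariate. Phlda2 lost its call without HET 1 or HET 2 (0.056 to 0.0731) and in a fit of HET and KO alone.

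Imprinted genes outside the 39 included several that fell. From a list of 53 others, 43 had a probe set and 37 were tested, of which none rose and 6 fell (16.2%, beside 15.2% of all genes lower and 23.5% changed either way). Slc22a2, an organic cation transporter of the Igf2r cluster, had values of 10.57, 10.97 and 10.53 in WT and 8.98, 9.22 and 8.77 in KO, 3.25-fold lower (difference -1.70, adjusted p = 0.000991). Cmah, an enzyme of sialic acid conversion, fell by 1.00 on the log2 scale (adjusted p = 0.00306), Copg2, a vesicle coat gene, by 0.57 (adjusted p = 0.00223) and Trappc9, a gene of vesicle traffic, by 0.38 (adjusted p = 0.0136). Against HET, 1 rose and 5 fell (16.2%, beside 21.8%). The list's median difference from WT was -0.06.

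Genes of insulin-like growth factor signalling moved in both directions around an Igf2 signal that did not pass. Of 17 tested, 6 rose and 3 fell (52.9%, beside 23.5% of all genes), with a median of 0.18. Against HET, 5 rose and 3 fell (47.1%, beside 21.8%). Igfbp3, a binding protein that holds growth factors in the circulation, read 9.43, 9.60 and 9.56 in WT and 10.67, 10.41 and 10.34 in KO, a rise of 0.94 (1.92-fold, adjusted p = 0.00103). Irs1, the adaptor of the insulin and growth factor receptors, rose by 0.75 (adjusted p = 0.00223). Pappa, a protease that cleaves binding proteins, rose by 0.74 (adjusted p = 0.0011), on a probe set above the 40th percentile on the 3 KO arrays only. Igfbp7, a binding protein of vessels and matrix, fell by 0.94 (adjusted p = 0.00223).

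Of 23 tested genes that set or keep imprints, 5 rose and none fell (21.7%, beside 8.27% of all genes higher and 23.5% changed either way). Against HET, 8 rose and 1 fell (39.1%, beside 21.8%), over the same KO arrays. The gene that fell was Zfp57, at -0.38 from HET (limma adjusted p = 0.0154). Its KO arrays also lay below every WT array, but the difference from WT, -0.27, did not pass (adjusted p = 0.051). Dnmt3b, a DNA methyltransferase, rose by 0.38 (adjusted p = 0.00344), the demethylating enzymes Tet3 and Tet1 by 0.44 and 0.36 (adjusted p = 0.0142 and 0.0384) and Trim28, the corepressor that guards imprints, by 0.22 (adjusted p = 0.0267). Tet3 missed the threshold without WT 1 (adjusted p = 0.0565), Trim28 without WT 1, WT 2, WT 3 or KO 3 (0.0628 to 0.0849), and Tet1 without any array other than HET 1 and HET 3 (0.0563 to 0.103).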

How the data were processed

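RNA of 9 yolk sac samples was read on Affymetrix arrays. Per the submitters' processing notes the deposited log2 signals were made by the authors with RMA in Affymetrix Expression Console 1.2.1.20, a method that corrects background, equalises array distributions and sums probes. The array's genome build was not stated. Array medians ran from 7.07 to 7.20 and values from 2.46 to 13.9, so no probe set was centred. Of 28350 probe sets, 21780 had 1 gene symbol in GEO's platform annotation, 1618 several and 4952 none. Each gene was represented by its probe set of highest mean, and the 35 members with one were found by gene number in RefSeq (GRCm38.p6) under the same symbol. Genes above an array's 40th percentile on at least 3 of the 9 arrays were tested (13207, with 6726 dimmer genes left out). limma 3.58.1 in R 4.3.3 fitted 1 model over all 9 arrays, and genes passed at a Benjamini-Hochberg adjusted p under 0.05 over all genes tested. The fit was tested on simulated data with known changes. The number of arrays limits the precision.

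The members, the class of each and the other lists were chosen with earlier results of these data known, and classes were taken from general knowledge of imprinting. Every member is named, members that passed in any comparison and Igf2 and Igf2r are given on each array, and other lists are represented by at most 4 genes of smallest unadjusted p between KO and WT, or for marker lists at most 3 genes farthest from the WT mean on KO 1. Further trophoblast genes, Rian and Zfp57 were named in addition, after their values were seen. Alternatives changed the filter, the probe set rule, the normalization, the arrays fitted, array weights, the prior, a replicate block, a sex covariate and the members counted.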

Additional observations from a re-analysis of the deposited data

How the results depend on the processing

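Slc22a18, Tssc4 and Impact passed against WT and against HET in all 21 alternatives, and the Rnh1 difference stayed between -3.84 and -3.55 with each array left out in turn. HET against WT gave 0 members throughout. Leaving out each array moved the members past KO against WT from 11 to 5 to 12 (5 without WT 1, 6 without WT 2, WT 3, HET 1 or KO 2, and 12 without KO 1), with 2 to 8 higher and 3 to 5 lower. Against HET it gave 5 to 12 (5 without HET 1 or HET 2, 12 without KO 1), with 1 to 7 higher and 3 to 6 lower. The class medians of KO minus WT were then 0.0661 to 0.0945 (maternal) and 0.0402 to 0.121 (paternal, 0.0402 without KO 3). KO against WT gave 7 members with no filter (2 higher), 5 with WT and KO alone (1 higher) and 19 with array weights (14 higher), whose estimation stopped before it converged. Centring arrays on their medians gave 3 higher, quantile normalization and cyclic loess 3 lower each, and leaving out WT 2 and KO 1 2 lower. Against HET, 5 members were higher under quantile normalization, cyclic loess and the trended prior, 6 with array weights and 7 without WT 2 and KO 1. The maternal median of KO minus WT was 0.018 with centred arrays and -0.106 without genes classed as imprinted mainly in placenta or brain. The paternal median was 0.0133 with centred arrays, 0.138 under quantile normalization, 0.14 under cyclic loess and 0.135 without WT 2 and KO 1. Over all genes, centring changed the split of higher to lower calls from 1092 and 2009 to 577 and 2529, and quantile normalization to 1471 and 1939. The causes were not tested.

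Signs turned for 9 members, none of which passed in either version, at sizes up to 0.0735. With centred arrays KO minus WT became -0.0159 for Cd81, -0.00922 for Peg10, -0.0425 for Mest and -0.0438 for Rtl1, and KO minus HET -0.021 for Rtl1 and -0.0161 for Plagl1. Under quantile normalization and cyclic loess Rtl1 became -0.0178 and -0.0266 against WT and -0.0224 and -0.0142 against HET, and Grb10 0.0539 and 0.0462 against WT. Without WT 2 and KO 1, Cdkn1c became 0.0695 and 0.0406, Cd81 -0.0216 against HET and Mest -0.00986 against WT. With the sex covariate Grb10 and Plagl1 became -0.00748 and -0.0119 against HET, and with array weights Nap1l4 -0.00218. With each array left out, KO minus WT ran from -0.353 to 0.0104 for Cdkn1c, -0.176 to 0.0328 for Kcnq1, -0.0227 to 0.104 for Cd81, -0.00942 to 0.0447 for Mest, -0.0175 to 0.0721 for Rtl1 and -0.0799 to 0.0364 for Grb10. KO minus HET ran from -0.323 to 0.0406 for Cdkn1c, -0.0216 to 0.105 for Cd81, -0.0135 to 0.0218 for Rtl1, -0.0144 to 0.102 for Grb10 and -0.0735 to 0.0921 for Plagl1.

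The labels number replicates 1 to 3 in each genotype without saying what a number shares. Same-numbered arrays correlated in their deviations from -0.257 to 0.425, with 5 of 9 pairs above 0.1, and 4 of 9 arrays correlated best with their own number, so the number was not taken as a pairing. With the replicate block 9 members passed against WT and 6 against HET, with 1 higher against HET.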
